A study of Mus musculus with 53 samples.

Results

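Loss of paternal Nnat was examined in the arcuate nucleus (ARC) of male mice on a high-fat diet (HFD), by comparing 4 Nnat+/-p libraries with 6 Nnat+/+ libraries fed the same diet. Of the 53 libraries in the series the labels place 11 in the HFD-fed ARC, and 10 were used. The library not used is replicate 32 (Nnat+/-p, 42.5 g), which is labelled ARC but whose counts stand in the table of the PVN. The study asked how the hypothalamus of mice without Nnat differs in gene expression, and it also measured the ARC and the paraventricular nucleus (PVN) of chow-fed mice and the PVN of HFD-fed males. Both groups used here were C57BL/6 males whose diet is labelled 45% HFD, with brains collected at 13 to 14 weeks of age, and they differ in the labels by genotype only. Nnat+/-p mice inherited a null allele from the father in which exons 2 and 3 are missing and a lacZ cassette is present, and they carry it throughout the body. Nnat+/+ mice carry both alleles intact and were littermates in the study's design. The ARC was cut by laser from stained sections of 20 µm, so a library holds RNA from neurons, glia and vessels of the captured area.

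Nnat is an imprinted gene of which the paternal copy is active. It encodes neuronatin, a small membrane protein of the endoplasmic reticulum, and it lies within an intron of Blcap, which is read from the opposite strand. The ARC contains the neurons that make the appetite-stimulating peptides AgRP and NPY and those that make POMC, the precursor of peptides that lower food intake. These neurons carry receptors for leptin, insulin and ghrelin, and an HFD is known to dampen their response to leptin.

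Total counts ranged from 2838121 to 18058097 per library, with 1 Nnat+/+ library (replicate 45) far deeper than the rest. RNAs of the mitochondrial ribosome took 27.3% to 46.8% of counts and loci related to cytoplasmic ribosomal RNA took 6.85% to 35.5%, with overlap between genotypes in each of the 2 shares. Labelled body weight was 41.2 ± 2.15 g (SD, n = 6) in Nnat+/+ and 41.7 ± 2.33 g (SD, n = 4) in Nnat+/-p mice, and no difference was detected (exact permutation of the 210 possible splits, two-sided, p = 0.71). Each of the 10 libraries has a labelled weight of its own, but the labels do not name the mice, so the p-values measure the spread between these libraries. Replicate 53 (Nnat+/-p, 42.5 g) has the labelled weight and genotype of replicate 32, the library not used. From which nucleus replicate 32 came was not tested. Of the 10 libraries, 9 share their labelled weight with 1 HFD library labelled PVN. In 7 of those 9 pairs the genotype labels are the same. The exceptions are replicate 44 (Nnat+/+, 43.9 g), whose weight is that of a PVN library labelled Nnat+/-p, and replicate 51 (Nnat+/-p, 42.9 g), whose weight is that of a PVN library labelled Nnat+/+ (replicate 24). In its markers replicate 24 also stood apart from the other libraries labelled PVN. Markers of the PVN were low in it, with 1.31 CPM of Oxt, 0.937 CPM of Avp and 19.7 CPM of Otp. The other 8 HFD libraries of the PVN had 223 to 1275, 71.8 to 418 and 136 to 259 CPM. Sim1 and Crh were at 16.7 and 22.5 CPM, below the 121 to 185 and 46.9 to 107 CPM of those 8. Both lay above the ARC, which had at most 7.58 and 0.916 CPM. Nkx2-1 and Bsx, which mark the mediobasal hypothalamus, were at 31.3 and 19.1 CPM in replicate 24. Those 8 had at most 2.95 and 0.507 CPM, and the ARC had 9.43 to 22.6 and 4.79 to 14.4 CPM. Other markers of the ARC lay below its range, with Tbx3 and Pomc at 6.185, Npy at 4.12 and Agrp at 0.187 CPM. Of these the ARC had at least 31.2, 26.4, 8.5 and 2.59 CPM, and those 8 at most 8.45, 4.15, 4.56 and 0.953 CPM. Results that use the PVN are therefore given with and without the library labelled PVN replicate 24, a choice made after its marker levels were seen. Nnat itself followed the genotype label in each of the 10 ARC libraries and each of the 9 PVN libraries, and the results below are also given without replicates 44 and 51 where that moves them.

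Nnat (ENSMUSG00000067786), on the plus strand at chr2:157560078-157562522 in GRCm38, fell to near zero in the HFD-fed ARC of Nnat+/-p mice. Levels are given in CPM, the read count of a gene relative to the library's total after scaling by TMM factors. Nnat in the 6 Nnat+/+ libraries had a lowest value of 277.6, a median of 443 and a highest value of 480 CPM. The 4 Nnat+/-p libraries (replicates 50 to 53) held 1.05, 3.95, 3.06 and 1.67 CPM, which rest on 4, 10, 14 and 12 counts. Every Nnat+/-p library was therefore under 1% of the Nnat+/+ mean, between 0.262% and 0.988% of it, and the groups were far apart. The deposited counts are per gene, so reads of exon 1 and of the deleted exons cannot be told apart in them. The log2 fold change was -7.45 ± 0.35 (SE; edgeR quasi-likelihood test, adjusted p = 8.29e-16), and exact permutation over libraries, two-sided, gave p = 0.00476, the smallest that 210 splits allow. Without replicates 44 and 51 the log2 fold change was -7.65 (adjusted p = 2.04e-13). In the PVN of HFD-fed males Nnat was at 399.5 to 506 CPM in Nnat+/+ and at 5.16, 4.02 and 1.21 CPM in Nnat+/-p libraries, and the difference between nuclei in the log2 fold change was -0.41 ± 0.44 (edgeR, adjusted p = 0.999), and -0.42 ± 0.45 without replicate 24 (adjusted p = 0.999 by edgeR).

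**Figure D1:**
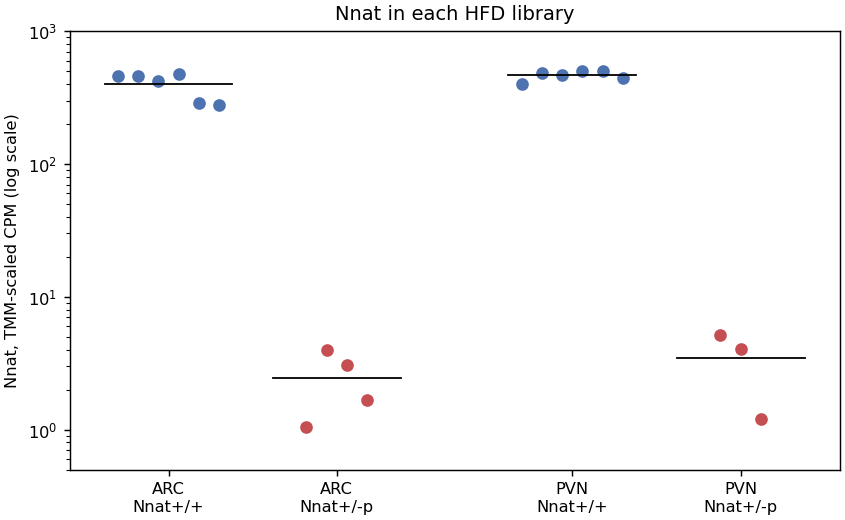
Nnat in TMM-scaled CPM (log axis) in each HFD library of the ARC and the PVN, 1 point per library, with a line at the group mean. The genotypes of the ARC do not overlap, with Nnat+/-p between 1.05 and 3.95 CPM and Nnat+/+ between 277.6 and 480 CPM.

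No gene next to Nnat was called as different. Blcap (ENSMUSG00000067787), the host gene, had 33.3, 49.9 and 57.4 CPM as lowest, median and highest values in Nnat+/+ libraries and 43.2, 45.4, 60.5 and 47.9 CPM in Nnat+/-p libraries. The groups overlapped, and the log2 fold change was 0.05 ± 0.18 (adjusted p = 1), which moved to -0.08 without replicate 52. Src, Manbal, Ghrh and Rpn2, other close neighbours, had log2 fold changes of -0.07, -0.17, 0.11 and -0.15, and Mroh8 and Vstm2l had 0.39 and 0.43. Ctnnbl1, also close by, was at -0.56 ± 0.26 with an unadjusted p under 0.05 (adjusted p = 0.999 by edgeR), at 12.4 to 17.7 CPM in Nnat+/+ and at 9.95, 13.4, 12 and 6.25 CPM in Nnat+/-p libraries. Of 108 tested genes within 5 Mb of Nnat on either side, 0 passed an adjusted p under 0.25 and 4 (3.7%) had an unadjusted p under 0.05, of which 3 were positive. Over all genes 4.54% had an unadjusted p under 0.05.

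Across the whole transcriptome Nnat and 1 further gene were called. Of 15753 genes tested, 2 (0.0127%) had an adjusted p under 0.25, 1 lower (Nnat, 0.00635% of genes) and 1 higher (Osbp2, 0.00635%). Unadjusted p-values under 0.05 were found for 715 genes (4.54%), 397 of them higher (2.52%) and 318 lower (2.02%) in Nnat+/-p mice, where a p under 0.05 in 5% of tests would be 788 genes. The levels of the groups did not overlap for 187 genes (1.19%), 82 higher (0.521%) and 105 lower (0.667%). The median log2 fold change over all genes was -0.019 and the median SE was 0.38.

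Osbp2, which encodes an oxysterol-binding protein, was called because of 1 library. Osbp2 (chr11:3703731-3863903) had 6.19, 8.73 and 14.2 CPM as lowest, median and highest values in Nnat+/+ libraries. In Nnat+/-p libraries it had 9.43, 9.08, 1815 and 18.9 CPM, the highest value being replicate 52 with 8311 counts. The other 3 Nnat+/-p libraries lie within the Nnat+/+ range or at 18.9 CPM. The log2 fold change was 5.6 ± 0.87 (adjusted p = 0.00308), and without replicate 52 it was 0.39 (adjusted p = 0.95). The call was also lost when only the HFD groups were fitted (adjusted p = 0.872), with labelled weight as a covariate (2.99, adjusted p = 0.912), with limma and quality weights (3.79, adjusted p = 0.867) and with a robust prior (adjusted p = 1), while DESeq2 gave no adjusted p. The PVN library with the same labelled weight and genotype as replicate 52 (38.2 g, replicate 31) held 128 CPM of Osbp2, against 4.73 to 19.3 CPM in the other 8 HFD libraries of the PVN. High Osbp2 was thus measured in both nuclei under 1 labelled weight and in no other HFD library.

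Kif21a, a kinesin motor of axonal transport, came next and also rested on 1 library. Kif21a (chr15:90933276-91049948) had 145.5, 235.9 and 288 CPM as lowest, median and highest values in Nnat+/+ libraries and 168, 5990, 237 and 235.5 CPM in Nnat+/-p libraries. The high value is replicate 51, with 15181 counts. The log2 fold change was 2.88 ± 0.61 (adjusted p = 0.264), and it was -0.08 without replicate 51 and -0.09 without replicates 44 and 51. Leaving out replicate 50, 52 or 53 brought Kif21a past the threshold (adjusted p = 0.0252, 0.053 and 0.0251). The unnamed transcript Gm30806 had 406 counts in replicate 51 and 0 in the other 9 HFD libraries of the ARC, a mean at least 470-fold higher in Nnat+/-p against a floor of 3 counts over the Nnat+/+ group. Of the 10 chow-fed ARC libraries, the same one (replicate 34, Nnat+/+) was the highest for both genes, with 2488 CPM of Kif21a and 272 counts of Gm30806, and no other of them had a Gm30806 count.

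Lepr, the leptin receptor, was the gene with the smallest p on the lower side after Nnat, and its difference was set in large part by replicate 44. Lepr (chr4:101717404-101815352) had 6.19, 12 and 244 CPM as lowest, median and highest values in Nnat+/+ libraries, the highest being replicate 44 and the next 26.2 CPM. In Nnat+/-p libraries it had 4.98, 3.55, 7.21 and 2.08 CPM, so the groups overlapped at the upper end of Nnat+/-p. The log2 fold change was -3.5 ± 0.89 (adjusted p = 0.92), and it was -1.57 without replicate 44 and -1.5 without replicates 44 and 51. In chow-fed ARC libraries, of which only 2 are Nnat+/+ here and below, the genotype difference of Lepr was 0.63. There replicate 36 (Nnat+/-p) held 37.9 CPM, while the other Nnat+/-p libraries held 2.4 to 6.31 CPM. The 2 Nnat+/+ libraries held 7.18 and 2.755 CPM. In the HFD-fed PVN the genotype difference of Lepr was -0.8, or -0.05 without replicate 24, and none of these differences was called. Replicate 44 also held the highest level by over 10-fold for Itih2, Ogn and Fmod, genes of extracellular matrix and its proteoglycans. Over all 15753 genes, 9 (0.0571%) had 1 of the 10 libraries more than 10-fold above the next, 5 of them in Nnat+/-p libraries (replicates 50, 51 and 52) and 4 in Nnat+/+ libraries (replicates 44 and 46).

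**Figure D2:**
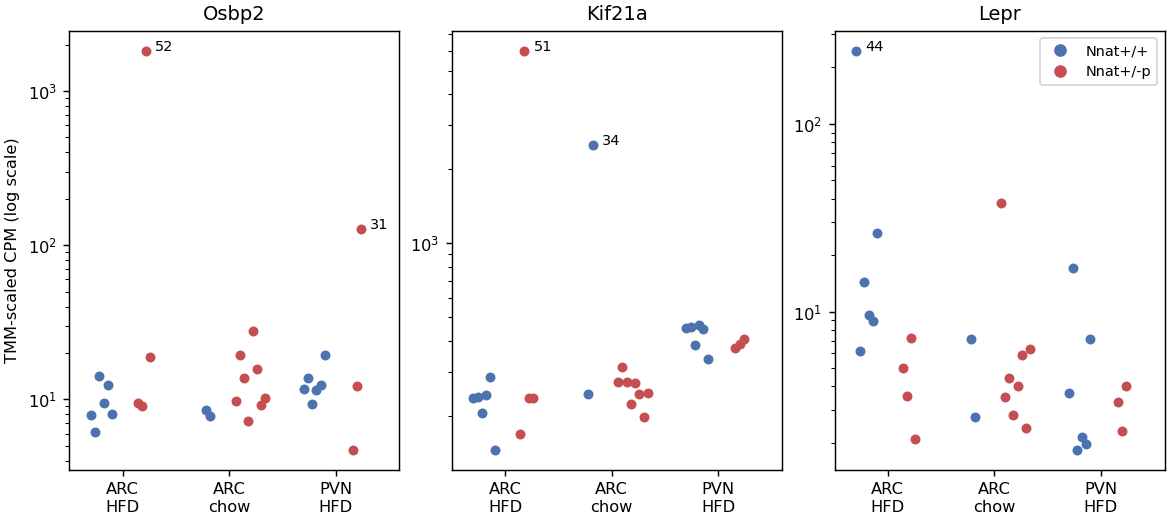
Osbp2, Kif21a and Lepr in TMM-scaled CPM (log axes) in each library of the HFD-fed ARC, the chow-fed ARC and the HFD-fed PVN, 1 point per library by genotype. Numbers mark the replicates at 1815 and 128 CPM of Osbp2, 5990 and 2488 CPM of Kif21a and 244 CPM of Lepr. The remaining points lie between 4.73 and 27.8 CPM for Osbp2 and between 145.5 and 465 CPM for Kif21a. For Lepr they lie between 1.84 and 37.9 CPM.

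The other genes of smallest p on the higher side did not pass the adjustment, and their levels were spread over several libraries. Ptprj, a receptor tyrosine phosphatase, had 22.3, 25.9 and 29.2 CPM as lowest, median and highest values in Nnat+/+ libraries and 60.8, 30.4, 32.8 and 49.3 CPM in Nnat+/-p libraries (log2 fold change 0.74 ± 0.18, adjusted p = 0.92). Sort1, the sorting receptor sortilin, had 35.1, 43.3 and 49.9 CPM in the first group and 55.3, 69.4, 58.1 and 87 CPM in the second (0.65 ± 0.16, adjusted p = 0.92). The groups of both genes did not overlap. Fstl4, a secreted follistatin-like protein, had 12.5, 12.9 and 17.9 CPM against 27, 20.9, 21.8 and 27.5 CPM (0.82 ± 0.22, adjusted p = 0.999). Cdh13, a membrane-anchored cadherin that binds adiponectin, had 31.2, 45.4 and 63.7 CPM against 67.6, 71.8, 81.5 and 148 CPM (0.99 ± 0.25, adjusted p = 0.92). Every Nnat+/-p library of these 4 genes lay above every Nnat+/+ library, as for 8 of the 12 genes of smallest p on this side. Over all genes it was 0.521%. The 12 were picked by p in the same libraries, so the separation adds no support. Hebp1 (heme binding), Prkrip1 and Tbc1d2b (a regulator of Rab GTPases) also did not overlap between groups, with log2 fold changes of 1.15, 1.02 and 0.98. Ddn, the postsynaptic protein dendrin, overlapped, with a log2 fold change of 1.16. In the chow-fed ARC the genotype differences of the same genes were between -0.52 and 0.69, and in the HFD-fed PVN they were between -0.33 and 0.32, or between -0.37 and 0.52 without replicate 24.

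Among the 12 genes of smallest p on the higher side, replicate 53 had the highest of the 10 levels for 5 and replicate 50 for 4. Among the 5 were Sort1, Cdh13, Fstl4 and Ddn, and without replicate 53 their log2 fold changes were 0.49, 0.65, 0.75 and 0.94. Replicate 53 was also the library with the most Nr5a1, the marker of the ventromedial nucleus described below, and the part of that nucleus in these differences was not tested.

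On the lower side the genes after Nnat and Lepr were at low levels for the most part, and none was called. Nfatc3, a transcription factor activated by calcineurin, had 10.6, 12 and 28.1 CPM as lowest, median and highest values in Nnat+/+ libraries and 1.57, 7.5, 6.99 and 6.39 CPM in Nnat+/-p libraries (log2 fold change -1.42 ± 0.38, adjusted p = 0.999). Cep126, a protein of centrosomes and cilia, had 8.69, 13.5 and 17.4 CPM against 8.65, 5.52, 4.59 and 4.45 CPM (-1.16 ± 0.32, adjusted p = 0.999). Gigyf1, which takes part in translational repression, had 24.1, 26.5 and 30.4 CPM against 9.17, 20.1, 17.7 and 18.2 CPM (-0.71 ± 0.23, adjusted p = 0.999). The groups of these 3 genes did not overlap, as for 6 of the 12 picked by p on this side and 0.667% of all genes. Epop, a chromatin protein that binds elongin and polycomb complexes, did not overlap either, but rested on 3 to 31 counts per Nnat+/+ library and on 0, 0, 0 and 2 counts in Nnat+/-p libraries. Gpnmb, a glycoprotein of lysosomes and phagocytes, had 2 to 18 counts per Nnat+/+ library and 0 in each Nnat+/-p library. Its mean was at least 10.5-fold lower against a floor of 3 counts over the group. That floor covers counting error only, and the 12 genes were picked by p in the same libraries. Lmx1b, a homeobox factor of posterior hypothalamic neurons among others, was also at 0 in each Nnat+/-p library, at least 17.3-fold lower by the same floor, but replicate 47 held 56 of its 87 Nnat+/+ counts and replicate 49 held 0. Clk1 (a kinase of splicing factors), Dnah9 (an axonemal dynein), Unc13c (synaptic vesicle priming) and Ccdc96 overlapped between groups, with log2 fold changes of -0.85, -1.49, -1.4 and -3.84. Replicate 50 had the lowest level of the 10 libraries for 7 of the 12 genes on this side, with genes at 0 in several libraries counted to the first of them, and replicate 53 for 4.

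**Figure D3:**
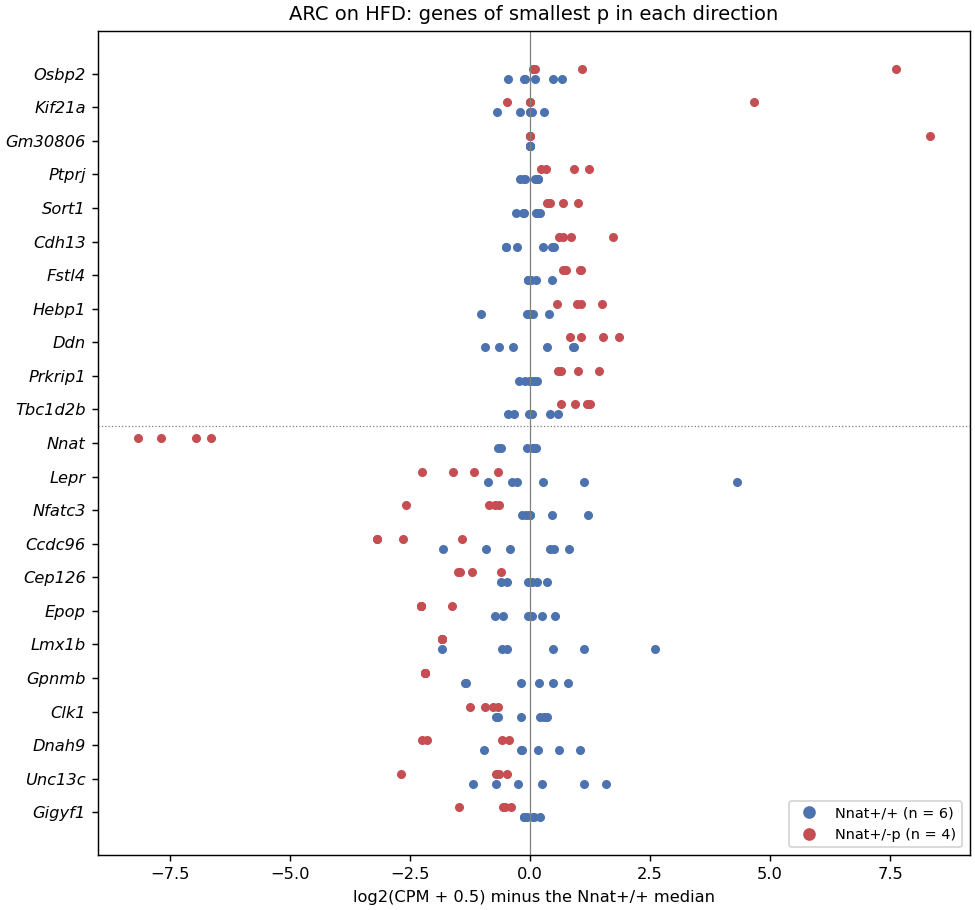
Genes of smallest p on each side, as log2(CPM + 0.5) minus the Nnat+/+ median (x axis), with Nnat+/+ libraries (n = 6) and Nnat+/-p libraries (n = 4) as points. Nnat stands apart in all 4 Nnat+/-p libraries, Osbp2, Kif21a and Gm30806 in 1 each, and Lepr in 1 Nnat+/+ library. Of the remaining genes, Ptprj to Tbc1d2b on the higher side do not overlap except for Ddn. On the lower side Gpnmb and Lmx1b are at 0 counts in all 4 Nnat+/-p libraries.

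The levels of the defining appetite peptides of the ARC overlapped between genotypes. A total of 282 genes in 20 lists were followed, of which 264 were tested, and 0 of the 264 were called against 0.0127% of all genes. Agrp had 2.59, 4.37 and 26.5 CPM as lowest, median and highest values in Nnat+/+ libraries and 15.7, 9.47, 7.43 and 4.31 CPM in Nnat+/-p libraries (log2 fold change 0.03 ± 0.67, adjusted p = 1). Npy had 8.5, 17.7 and 88.8 CPM against 50.04, 35.9, 21.4 and 11.3 CPM (0.07 ± 0.45, adjusted p = 1). Pomc had 26.4, 103.6 and 349 CPM against 201.5, 118, 163 and 103 CPM (0.25 ± 0.49, adjusted p = 0.999). Replicate 46 (Nnat+/+) was the highest of the 10 libraries for all 3, and without it the log2 fold changes were 0.72, 0.87 and 0.89. Without replicates 44 and 51 the values of Agrp and Npy turned to -0.19 and -0.17. Both Agrp and Npy, which mark the ARC, were detected in each of the 10 libraries, with at least 7 and 42 counts, at levels that spanned a wide range within each genotype.

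Of the 14 tested peptide genes 9 had a positive log2 fold change and the median was 0.09, which became -0.36 without replicate 50 and 0.394 without replicate 46. Pdyn, the precursor of dynorphin in arcuate neurons that also make kisspeptin, was the one with an unadjusted p under 0.05. It had 24.9, 41.3 and 50.7 CPM as lowest, median and highest values in Nnat+/+ libraries and 56.9, 54.5, 59 and 74.9 CPM in Nnat+/-p libraries, without overlap (0.63 ± 0.21, adjusted p = 0.999 by edgeR). In the HFD-fed PVN its log2 fold change was -0.09, and 0.07 without replicate 24. Cartpt, a peptide made with POMC, was at -0.4, and Sst, Ghrh and Gal were at 0.32, 0.11 and 0.14.

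No receptor or leptin or insulin signalling gene was called. Of the 18 receptors 10 were positive with a median of 0.01, and 2 (Cnr1 and Htr1b, receptors for cannabinoids and serotonin) had unadjusted p-values under 0.05 on the higher side and 1 (Lepr) on the lower. Cnr1 had a log2 fold change of 0.71 ± 0.28 (adjusted p = 0.999) and 116 CPM in replicate 53 against 44.3 to 65.1 CPM in the other Nnat+/-p libraries, and its log2 fold change was 0.34 without replicate 53. Ntsr1, the receptor for neurotensin, was at 0.755 to 7.95 CPM in Nnat+/+ and at 0 to 6.39 CPM in Nnat+/-p libraries (-0.17 ± 0.65, adjusted p = 1). Of the 14 signalling genes 9 were positive with a median of 0.04, Stat3 being at 0.13 and Socs3, a gene that STAT3 induces, at 0.79, and 0 had an unadjusted p under 0.05. Of 12 transcription factors of arcuate neurons 9 were negative with a median of -0.27, among them Tbx3 (-0.15 ± 0.27) and Isl1 (-0.58 ± 0.3), and 0 had an unadjusted p under 0.05.

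No gene of the compartment in which neuronatin resides was called. Of 18 genes for calcium handling, signal peptidase and stress of the endoplasmic reticulum, 8 were positive and 10 negative, with a median of -0.05. The chaperones Canx, Hsp90b1 and Hspa5 were at -0.07, -0.1 and -0.1, each with an SE of 0.13 to 0.15. Itpr1, a calcium release channel, was the member with an unadjusted p under 0.05 (0.62 ± 0.25, adjusted p = 0.999 by edgeR), and was at 0.35 without replicate 53. Of 11 genes of prohormone processing and granins 7 were positive with a median of 0.07. Pcsk1, which cleaves POMC among others, had 42.5, 54.9 and 69.4 CPM as lowest, median and highest values in Nnat+/+ and 39.04, 45.8, 44.1 and 38.6 CPM in Nnat+/-p libraries (-0.39 ± 0.17, adjusted p = 0.999 by edgeR). Pcsk2 and Chga had log2 fold changes of 0.43 and 0.72 at unadjusted p-values under 0.05, both with their highest level in replicate 53, and were at 0.16 and 0.45 without it.

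Imprinted genes other than Nnat had differences close to 0. The list also held Trim28, a chromatin regulator that acts at imprinted loci. Of 29 genes tested, 14 were positive and 15 negative, the median was -0.01 and 0 had an unadjusted p under 0.05, against 4.54% of all genes. Peg3 had 1009, 1316 and 1365 CPM as lowest, median and highest values in Nnat+/+ and 1177, 1416, 1274 and 1081 CPM in Nnat+/-p libraries (-0.04 ± 0.13). Gnas, Nap1l5, Ndn, Meg3 and Dlk1 were at 0.1, -0.08, 0.15, -0.22 and -0.08. Trim28 was at 0.19 ± 0.17. The widest differences, 0.97 for Cdkn1c and -0.77 for Igf2, came from genes that reached no more than 7.23 and 3.02 CPM in any library.

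Myelin genes were the list with the most members at low p-values. Of 13 oligodendrocyte genes 11 were positive, and the median log2 fold change was 0.49 against -0.019 over all genes. On the higher side 6 had an unadjusted p under 0.05, where 2.52% of all genes did, though 0 were called. The members mark 1 cell lineage in the same libraries, so the 6 are not independent of each other. Within genotypes the median of the list per library had a pooled SD of 0.35 on the log2 scale. Cnp, an enzyme of myelin-forming cells, had 33.3, 52.7 and 70.5 CPM as lowest, median and highest values in Nnat+/+ libraries and 82.8, 70.2, 59.4 and 96.4 CPM in Nnat+/-p libraries (0.58 ± 0.21, adjusted p = 0.999 by edgeR). Mbp, the myelin basic protein, had 118, 169.7 and 255 CPM against 241, 201.6, 213 and 316 CPM (0.49 ± 0.2, adjusted p = 0.999 by edgeR). The groups of both genes overlapped, with replicate 46 the highest Nnat+/+ library for each.

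Mobp, Mog and Olig1 had log2 fold changes of 0.57, 0.97 and 0.55. The summed level of the list was 339 to 764 CPM in Nnat+/+ libraries and 641 to 921 CPM in Nnat+/-p libraries, lowest in replicate 44 and highest in replicate 53. More oligodendrocytes in the captured area and more RNA per cell cannot be told apart in such samples. Without replicates 44 and 51 the median was 0.458, and over the fits that leave out 1 library it was between 0.325 and 0.585. It was -0.3 in the chow-fed ARC and 0.42 in the HFD-fed PVN (0.508 without replicate 24), where 7 of the 9 libraries share a labelled weight and genotype with one of the ARC. The difference of Mbp between diets was 0.97 ± 0.31 and between nuclei -0.08 ± 0.31, or -0.1 without replicate 24, none of them called (adjusted p = 1, 0.999 and 0.999 by edgeR).

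The lists of other glia and of vessels had medians nearer to 0, except for tanycytes. Microglial genes had a median of 0.11 (9 of 12 positive) and astrocyte genes 0.06 (9 of 12 positive), each with 0 members at an unadjusted p under 0.05. Gfap, the filament protein of astrocytes, had 47.1, 99.2 and 211 CPM as lowest, median and highest values in Nnat+/+ and 216, 211, 88.5 and 64.5 CPM in Nnat+/-p libraries (0.34 ± 0.38), and was at -0.06 without replicates 44 and 51. Endothelial and mural genes had a median of 0.13, with 1 (Acta2, of smooth muscle) at an unadjusted p under 0.05. Tanycyte and ependymal genes had a median of -0.32 (8 of 9 negative) and red blood cell genes one of 0.87 over 5 genes of 0 to 23.4 CPM, again with 0 at that p. The median of the red blood cell genes was -0.063 without replicate 53, and that of the vessels -0.08. The tanycyte median moved to -0.151 without replicate 53, to -0.751 without replicate 51 and to -0.861 without replicates 44 and 51.

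**Figure D4:**
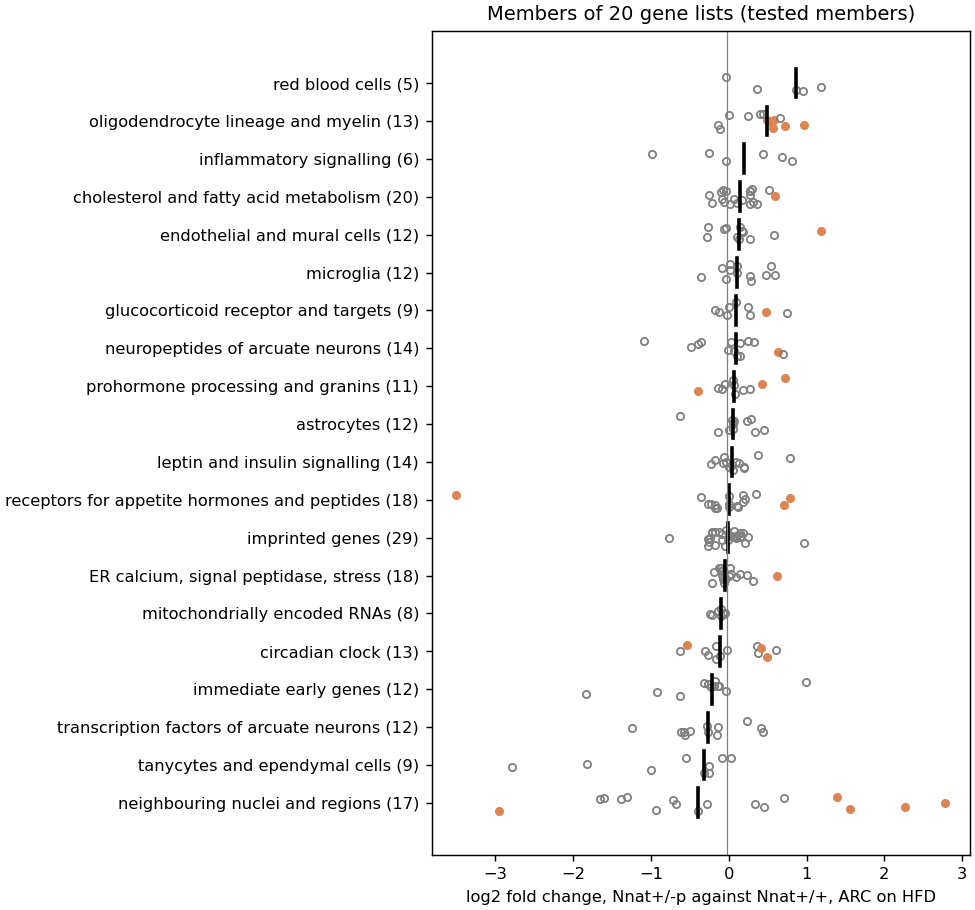
Log2 fold change (x axis, Nnat+/-p against Nnat+/+) of each tested member of 20 gene lists, with the number tested in brackets, filled where the unadjusted p is under 0.05, a thick bar at the list's median and a thin line at the median of all genes, -0.019. The oligodendrocyte list holds 6 filled points, and no filled point belongs to a gene with an adjusted p under 0.25.

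Markers of tissue next to the ARC differed between libraries by large factors. Nr5a1 and Fezf1, transcription factors of the ventromedial nucleus, had 0.377 to 17.8 CPM and 0.786 to 19.3 CPM in Nnat+/+ libraries. In Nnat+/-p libraries Nr5a1 had 1.83, 14.6, 7.86 and 55.3 CPM (1.56 ± 0.67, adjusted p = 0.999 by edgeR), and its log2 fold change was 0.17 without replicate 53. Fezf1 had 7.86, 14.2, 26.4 and 35.02 CPM (1.39 ± 0.54, adjusted p = 0.999 by edgeR). Hdc, the enzyme that makes histamine in tuberomammillary neurons, had a highest level of 88.7 CPM in replicate 47 and 0.786, 6.31, 3.93 and 1.39 CPM in Nnat+/-p libraries (-2.95 ± 1, adjusted p = 0.999 by edgeR), and was at -1.61 without replicate 47.

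Oxt, the precursor of oxytocin, had a higher level in each Nnat+/-p library than in any Nnat+/+ library. It had 0, 1.41 and 4.07 CPM as lowest, median and highest values in Nnat+/+ libraries, with 0 counts in replicates 44 and 45, and 11, 9.47, 12.5 and 14.5 CPM in Nnat+/-p libraries (2.78 ± 0.84, adjusted p = 0.999 by edgeR). The groups did not overlap, and limma with quality weights called it (3.78, adjusted p = 0.0691). In the chow-fed ARC, where only 2 Nnat+/+ libraries were used, its genotype difference was -2.52. The difference between diets was 5.3 ± 1.44 and was not called (adjusted p = 1). Avp, the precursor of vasopressin, had 31.4, 1.18, 6.77 and 2.78 CPM in Nnat+/-p libraries and 0 to 6.65 CPM in Nnat+/+ libraries (2.27 ± 1.04, adjusted p = 0.999 by edgeR), and its log2 fold change was 0.72 without replicate 50. In the HFD-fed PVN, where these peptides are made, the genotype differences of Oxt and Avp were -0.09 and 0.12, or -0.35 and -0.14 without replicate 24, which held almost none of either. Of the 17 tested markers of neighbouring regions 7 were positive and 10 negative with a median of -0.39 (-0.163 without replicate 45), their summed level was 34.7 to 230 CPM in Nnat+/+ and 105 to 152 CPM in Nnat+/-p libraries, and their part in the results above was not tested.

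**Figure D5:**
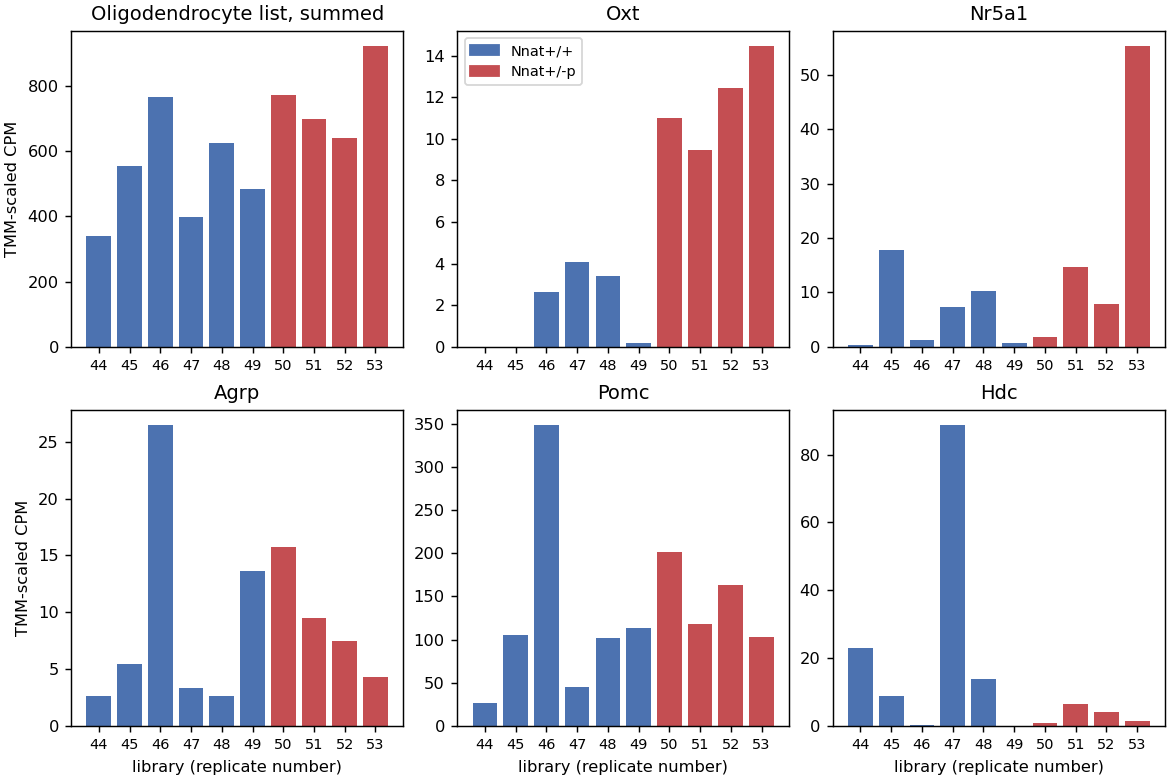
Levels in TMM-scaled CPM (y axes from 0) of the summed oligodendrocyte list and of Oxt, Nr5a1, Agrp, Pomc and Hdc in each HFD library of the ARC, with 1 bar per library. Oxt is at 9.47 CPM or more in the 4 Nnat+/-p libraries and at 4.07 CPM or less in the 6 Nnat+/+ libraries, while Agrp and Pomc peak in replicate 46, Nr5a1 in replicate 53 and Hdc in replicate 47.

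No member of the remaining lists was called. Of 12 immediate early genes, which mark recent neuronal activity, 11 were negative with a median of -0.21 (-0.452 without replicate 50), from -1.83 (Fosb) to 0.99 (Npas4), and 0 had an unadjusted p under 0.05. Of 13 clock genes Bhlhe41 and Tef were positive (0.42 and 0.49) and Per3 negative (-0.53) at that p, with a median of -0.11. Tef was at 0.18 without replicate 53 and Per3 at -0.3 without replicate 49. Per3 did not overlap between groups, at 17.6 to 40.01 CPM in Nnat+/+ and 15.3 to 16.3 CPM in Nnat+/-p libraries. Of 9 glucocorticoid targets Mt1 was positive at that p (0.48), and of 20 genes of cholesterol and fatty acid metabolism 1 was, with medians of 0.1 (0.237 without replicate 44) and 0.14 (0.049 without replicate 46). Ucp2, a mitochondrial carrier active in AgRP neurons, was at 0.27 ± 0.21. Inflammatory genes had a median of 0.2 over the 6 of 12 that could be tested, which was -0.193 without replicate 50, and mitochondrially encoded RNAs had one of -0.1 over 8.

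Whether the genotype difference depended on diet was tested against the chow-fed ARC (2 Nnat+/+ and 8 Nnat+/-p libraries used). Of 15753 genes 2 (0.0127%) were called, Kif21a (difference in log2 fold change 5.29 ± 0.89, adjusted p = 0.0165 by edgeR) and Gm30806. Both combine the high HFD library of Nnat+/-p (replicate 51) with the high chow library of Nnat+/+ (replicate 34), and 0 genes were called without either of those libraries, without replicates 44 and 51, or by DESeq2, where 684 had an unadjusted p under 0.05. By edgeR 604 genes (3.83%) had such a p, with a positive difference in 1.5% of genes and a negative one in 2.34%. Nnat had a difference of -0.06 ± 0.6 (adjusted p = 1). Whether it depended on the nucleus was tested against the HFD-fed PVN (6 Nnat+/+ and 3 Nnat+/-p libraries). Of 15308 genes 0 (0%) were called by edgeR, with 504 (3.29%) at an unadjusted p under 0.05, of which positive differences made up 1.38% of genes and negative ones 1.91%, and 0 by DESeq2, with 729. Without replicate 24 the count was 0 of 15128 by edgeR, with 561 at such a p. With libraries paired by labelled weight as a block, 2 of 15768 genes (0.0127%) were called by edgeR over the 7 pairs of 1 genotype. They were Osbp2 (difference 3.24, adjusted p = 0.134) and Oxt (2.93, adjusted p = 0.194). The same libraries without the block gave 0, with 718 at an unadjusted p under 0.05. Of those 7 pairs 2 are Nnat+/-p, and 1 of the 2 (replicates 52 and 31) holds the high Osbp2. The labels do not name the mice, so whether a pair is 1 mouse is not known. Deviations from the group means correlated at -0.024 to 0.129 within pairs, and 2 of the 7 ARC libraries correlated best with their own pair. In the HFD-fed PVN alone 1 of 17576 genes (0.00569%) was called, Nnat. There 174 genes (0.99%) had an unadjusted p under 0.05, well below 5% of tests. The power of this fit was not tested, so genes not called there are not shown to be unchanged. Without replicate 24 Nnat alone was called of 17734 genes (0.00564%), with 150 at that p.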

How the data were processed

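Total RNA of laser-captured ARC and PVN was sequenced from libraries of a stranded kit. The deposited values are the authors' read counts per gene, whole numbers without normalization, for 53379 Ensembl genes. The submitters' processing notes name STAR 2.5.0a and GRCm38, and the counting tool, annotation release and strand setting are not given in the sources used here, so Nnat and the overlapping Blcap may share reads. Symbols of 53274 genes and all coordinates came from GENCODE M21.

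Groups, diets, weights and replicate numbers came from the labels. The 5 male groups of the ARC were fitted together (20 libraries) in R 4.3.3 with edgeR 4.0.16. Replicate 35 (271324 counts, under 25% of the median) was left out, and replicate 32, labelled ARC with its counts in the table of the PVN, was put in no group. After filterByExpr (minimum count 10) and TMM scaling, genes were compared by the quasi-likelihood test and called at a Benjamini-Hochberg adjusted p under 0.25. Obese (over 37 g) and non-obese (under 35 g) chow-fed Nnat+/-p libraries counted equally in the test of diet. The PVN was fitted in the same way, and the 2 nuclei together for the test of the difference between them, with libraries taken as independent. Log2 CPM for the exact permutation tests used a prior count of 2.

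Named genes are Nnat and Blcap, the 12 of smallest p in each direction, and of each list the 3 highest, those called and those with an unadjusted p under 0.05, and Npy, Tbx3, Ntsr1, Ucp2, Agrp, Pomc and Gfap in any case. From the tests of difference the 3 called genes of smallest p on each side are named. Other neighbours of Nnat, list members and genes high in 1 library were named after their values were seen. Some genes that the rule names, and sequences, are not reported here. The comparison, gene lists and rule were chosen with earlier results of these data known.

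Alternatives were an adjusted p under 0.05, DESeq2 1.42.0, RLE factors, no filter beyond a total over 1, inclusion of replicate 35, the 2 HFD groups alone, limma 3.58.1 (voom with quality weights), labelled weight as a covariate, each replicate left out and replicates 44 and 51 left out. Chosen after seeing the data were a robust prior, with and without the filter, leaving out replicates 44, 51 and 52, the PVN without replicate 24, and labelled weight as a block in the test between nuclei. In simulated data for this comparison (14972 genes tested) 54.5% of genes at 0.5-fold, 79.4% at 2-fold, 97% at 0.25-fold and 100% at 4-fold were recovered. The changed genes were drawn only from those above the median level, with 33 or 34 at each fold. These shares therefore do not hold for genes of lower level or for data in which few genes change. The SEs of log2 fold changes come from the edgeR fit and include the spread between libraries, as do the SDs of weight. The floors cover counting error only.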

Additional observations from a re-analysis of the deposited data

Results flagged for a closer look

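Among 216 groups of 4 or 6 libraries, 20 had 1 library far from the others of its genotype, where chance gives about 1 in 20 for independent groups. These groups share the same 10 libraries, and some of their genes were named for a small p in them. The count is therefore a description and no test of the libraries. Those of the Nnat+/-p group were Osbp2 at 1815 CPM in replicate 52 (others 9.07 to 18.9), Kif21a at 5990 CPM in replicate 51 (others 168 to 237) and Gm30806 at 160.2 CPM in replicate 51 (others at 0). Replicate 50 was the lowest for Nfatc3 at 1.57 CPM, Unc13c at 4.19 CPM, Gigyf1 at 9.17 CPM, Cpe at 415 CPM and Ntsr1 at 0 CPM. Replicate 53 was the lowest for Gnas at 693.5 CPM and mt-Rnr1 at 67840 CPM, and held the only Epop counts of its group at 0.278 CPM. The labelled weight of replicate 52, 38.2 g, also stood apart from 42.5 to 43.1 g in the other 3.

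In the Nnat+/+ group replicate 49 stood apart for Scg2 at 420 CPM and Peg3 at 1009 CPM (both the lowest) and for Nr1d2 at 71.03 CPM and Per3 at 40.01 CPM (both the highest). Replicate 46 did so for Hebp1 at 2.88 CPM (the lowest) and Npy at 88.8 CPM (the highest), and replicate 48 for Fstl4 at 17.9 CPM. The total of replicate 45, 18058097 counts, was set against 3592129 to 6471278 in the other 5.

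The genotype difference differed between diets by the test of that difference for Kif21a (5.29 on the log2 scale, HFD minus chow) and for Gm30806, whose fitted value of 21.19 depends on the prior count, since all but 1 library of each diet were at 0.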

How the results depend on the processing

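Nnat was called under every alternative run. The 2 calls became 1 (Nnat) with DESeq2, which gave Osbp2 no adjusted p, with only the HFD groups fitted, with labelled weight as a covariate and with a robust prior. They became 64 (47 higher, 17 lower) with every gene that had more than 1 count in all, where the prior degrees of freedom became infinite against 15.7, and 8 (6 higher, 2 lower) when a robust prior was added. Leaving out 1 library gave 2 to 4 calls, the 4 being without replicate 53. Without replicates 44, 51 and 52 the calls were Nnat and Ptprj. List members called were 0, but 13 with every gene, 2 (Oxt among them) with every gene and a robust prior, 1 (Oxt) with limma, and 0 to 1 over the fits without 1 library. For the difference between diets the 2 calls became 25 (14 positive, 11 negative) with every gene, and 0 with DESeq2 or without the libraries of conflicting weight, with 0 to 2 over the fits without 1 library. For the difference between nuclei 28 (20 positive, 8 negative) were called with every gene, 2 (Osbp2 and Oxt) with a replicate block by labelled weight and 0 to 0 without 1 library, and in the PVN 8 (1 higher, 7 lower) with every gene and 1 to 1 without 1 library. The cause was not tested where none is given.

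Over the alternatives other than single libraries left out, the named genes reported here kept direction and side of the threshold in 1039 cases, reversed in 18, passed the threshold in 25 and lost it in 6. Without replicates 44 and 51 the reversals were Kif21a (-0.09), Gfap (-0.06), Nes (-0.26), Hbb-bs (0.22), Npy (-0.17) and Agrp (-0.19). With replicate 52 also left out they were Blcap (-0.12), Kif21a (-0.16), Nes (-0.24), Rgs5 (0.04), Hbb-bs (0.22) and Agrp (-0.05). With limma they were Ptpn11 (-0.11), Nes (-0.08) and Hbb-bs (0.24), and with weight as a covariate Nes (-0.03), Hbb-bs (0.15) and Npy (-0.03). Over the fits without 1 library the log2 fold change ranged from -0.08 to 0.10 for Blcap, -0.34 to 0.87 for Npy, -0.38 to 0.72 for Agrp, -0.14 to 0.06 for Rgs5, -0.48 to 0.23 for Ntsr1, -0.27 to 0.06 for Tbx3, -0.39 to 0.01 for Jun, -0.25 to 0.02 for Cpe, -0.22 to 0.22 for Nes and -0.13 to 0.11 for Ptpn11. It ranged from -0.02 to 0.14 for Pam, -0.07 to 0.12 for Slc1a3, -0.78 to 0.44 for Hbb-bs, -0.01 to 0.23 for C1qa, -0.08 to 3.24 for Kif21a, -0.14 to 0.01 for Scg2, -0.11 to 0.01 for Peg3, -0.09 to 0.16 for Fasn, -0.19 to 0.05 for Col25a1, -0.14 to 1.20 for Hba-a1 and -0.12 to 0.02 for mt-Cytb. Gm30806 could not be fitted without replicate 51.

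With 4 libraries against 6 and a median SE of 0.38, small differences of most genes were not detectable. No paired analysis was possible because the replicate numbers of the labels, 44 to 53, are each used once, for the genotypes within the ARC. Between nuclei the labelled weight stood in for the mouse. The deviations of the 7 pairs from their group means correlated at -0.024 to 0.129 across genes, and 2 of the 7 ARC libraries correlated best with the PVN library of their own weight.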
